A study of Mus musculus with 2 samples.

Results

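The regions described here are places in the mouse genome where chromatin bound by Scl held a GATA sequence close to the point of highest enrichment. They were chosen from the 959 enriched regions of 1 library, and 362 of them (37.7%, exact binomial 95% interval 34.7 to 40.9) qualified. A region needed at least 8 distinct reads in a 200 bp window, 5 times the larger of the genome average and the surrounding 10 kb, and neither strand below 20% of the reads. It then needed WGATAR, in which W is A or T and R is A or G, on either strand and wholly within 100 bp of the summit, which is the median fragment centre of the best window. The sequence was the consensus of the deposited reads themselves. The other 597 regions are called regions without a site, although a site in bases that no read covered would have been missed.

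All libraries came from HPC-7, an early haematopoietic mouse cell line derived from embryonic stem cells and grown in medium conditioned with stem cell factor. Fixation used 0.4% formaldehyde, fragments of 200 to 500 bp were made by sonication, and Scl chromatin was precipitated with an antiserum, with no treatment and no second genotype. DNA of 1 immunoprecipitation was divided into 3 portions. Lanes 7 and 8 were read at one site and form sample 1 (5632119 distinct reads, build mm9), and the portion read at another site is sample 2 (4150610 distinct reads, build mm8), from which the regions were chosen. No control library was used here, so every enrichment is relative to the reads around it, and intervals cover counting error only. A single cell line and a single immunoprecipitation give no biological replicate.

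Scl, the product of the gene Tal1, belongs to the basic helix-loop-helix family of transcription factors and is required for the formation of blood. It pairs with E proteins such as the product of Tcf3 to bind CANNTG, the E-box. Factors of the GATA family, such as Gata1 and Gata2, are zinc finger proteins that bind WGATAR, and the adaptors Lmo2 and Ldb1 can join both kinds of factor in 1 complex on DNA. Such complexes are known for composite sites in which an E-box precedes the GATA sequence at a short, fixed spacing.

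The sequences below show the 3 arrangements found around WGATAR in these regions. They are read from sample 2 (mm8), 5′ to 3′ on the strand of WGATAR, and each base rests on 1 to 12 reads. Capitals mark 1 WGATAR, together with an E-box or the letters CTG where these lie 7 to 9 bp before it. In the sequence nearest to Gfi1 a second site, AGATAG, overlaps the marked one and is otherwise in lower case. The first 5 hold an E-box, the next 3 hold CTG without an E-box, and the last 2 hold neither.
chr8:125605954-125606013, plus strand, 20788 bp before a Cbfa2t3 start: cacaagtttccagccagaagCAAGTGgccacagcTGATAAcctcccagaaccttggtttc
chr8:125585278-125585337, plus strand, 126 bp before a Cbfa2t3 start: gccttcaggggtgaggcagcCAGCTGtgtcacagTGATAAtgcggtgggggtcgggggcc
chr17:84685076-84685135, plus strand: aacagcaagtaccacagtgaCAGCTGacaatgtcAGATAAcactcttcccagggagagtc
chr8:123256112-123256170, minus strand: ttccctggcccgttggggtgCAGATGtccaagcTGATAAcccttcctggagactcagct
chr1:174363548-174363608, minus strand: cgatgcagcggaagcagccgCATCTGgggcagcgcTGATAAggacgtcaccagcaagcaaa
chr8:87591728-87591773, minus strand, Lyl1 start: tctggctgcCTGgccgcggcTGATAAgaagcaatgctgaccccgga
chr4:114593888-114593933, plus strand, Tal1 interval: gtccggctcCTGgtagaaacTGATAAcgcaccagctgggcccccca
chr11:102286270-102286315, plus strand, Itga2b start: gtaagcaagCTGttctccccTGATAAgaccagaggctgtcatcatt
chr5:107999596-107999638, minus strand, nearest to Gfi1: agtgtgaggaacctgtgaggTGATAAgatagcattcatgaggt
chr8:75197431-75197476, plus strand: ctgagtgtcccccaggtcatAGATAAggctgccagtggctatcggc

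The rule fixed that each region held WGATAR, but not how many copies, which of its forms, or where within the window. In all, 486 sites were read, with 1 site in 260 regions, 2 in 86, 3 in 10 and 4 in 6. AGATAA was the most frequent form, with 229 sites (47.1%, exact binomial 95% interval 42.6 to 51.7), against 27.4% of the WGATAR sites in reads outside regions. TGATAA had 130 sites (26.7%, against 23.4% outside), AGATAG 73 (15.02%, against 27.7%) and TGATAG 54 (11.1%, against 21.5%). The forms ending in A were therefore the more frequent ones in the regions, whereas outside them AGATAA and AGATAG had nearly equal shares. The bases next to the site also differed from those outside. C stood before 40.2% of the sites, against 28.7% outside, and G followed 46.4%, against 25.4%. These shares describe sites that were chosen for lying under enriched reads, and they carry no test.

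Within the window the sites lay close to the summit. The site nearest to the summit was at a median distance of 26.5 bp, within 20 bp in 153 of the 362 regions (42.3%) and within 50 bp in 286 (79.01%). Per kb of bases covered by reads, WGATAR occurred 14.9 times within 20 bp of the summit (exact Poisson 95% interval 12.6 to 17.4), 9.43 times at 40 to 60 bp and 4.93 times at 80 to 98 bp. Beyond the limit of the rule, at 98 to 150 bp, it occurred 1.61 times (1.05 to 2.36), which spans the 1.68 sites per kb of reads outside regions. The density within 100 bp is raised by the choice of regions, but its fall with distance was not set by the rule. Only 5 regions had their nearest site more than 90 bp away, and 13 regions without a site had one within the next 13 bp outside the limit.

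**Figure D1:**
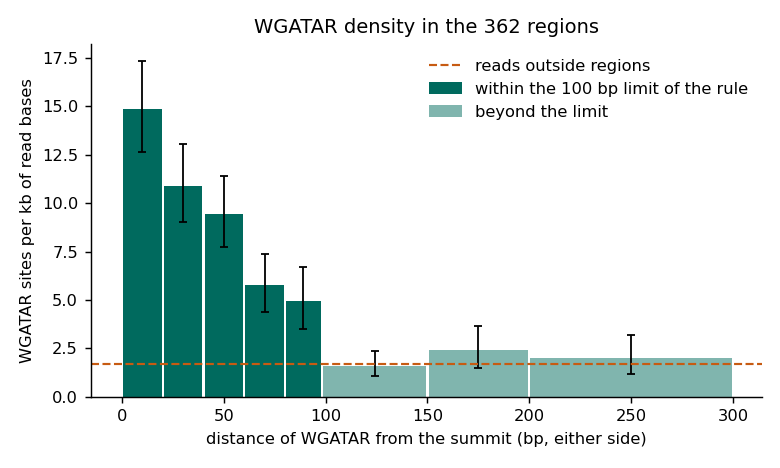
WGATAR sites per kb of bases covered by sample 2 reads (vertical axis) by distance from the summit in bp (horizontal axis) in the 362 regions. Bars are counts over covered positions with exact Poisson 95% intervals, dark bars lie within the limit of the rule, and the dashed line is the density in reads outside regions. The density falls from 14.9 per kb next to the summit to 4.93 at 80 to 98 bp.

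Read ends lay on both sides of the site, plus-strand ends before it and minus-strand ends after it. Within 300 bp of the site, the 5′ ends of plus-strand reads had a median position 60 bp before it (-60) and those of minus-strand reads 65 bp after it in sample 2. In sample 1, whose reads were not used to choose the regions, the medians were -64 and 66 bp over the 306 regions that could be placed there. The strand distance, which is the median minus-strand end less the median plus-strand end, had a median of 133.5 bp in sample 2 over the regions with a site, and 108 bp over those without. A strand distance under 69 bp, the length by which reads were moved to the fragment centre, was found in 47 of 362 regions with a site (12.98%) and in 211 of 597 without (35.3%).

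**Figure D2:**
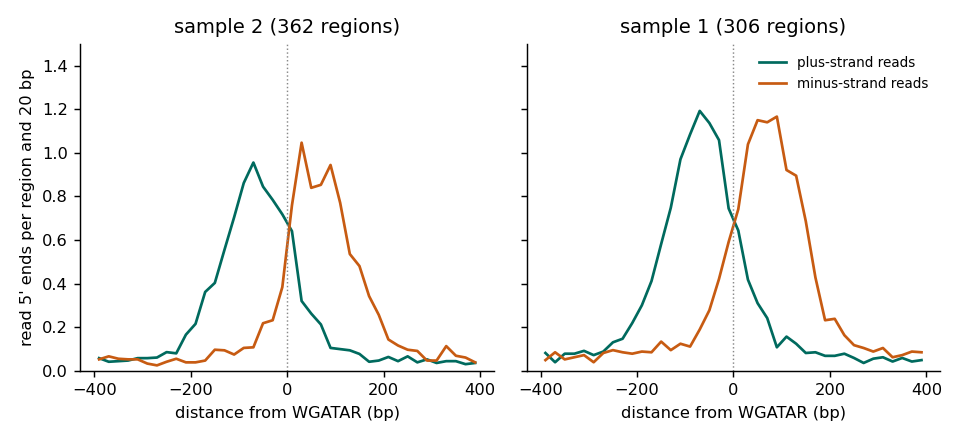
Read 5′ ends per region in 20 bp bins (vertical axis) by distance from WGATAR in bp (horizontal axis), for sample 2 over 362 regions and sample 1 over 306 placed regions, with plus-strand and minus-strand reads as separate lines. In both samples plus-strand ends peak before the site and minus-strand ends after it.

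An E-box stood before WGATAR more often at 7 and 8 bp than at any other spacing counted. Counted by the number of bases between the E-box and WGATAR, 25 of 396 readable sites had an E-box at 8 bp (6.31%), 15 of 405 at 7 bp (3.704%) and 4 of 392 at 9 bp (1.02%). Over 7 to 9 bp the share was 3.69%, against 0.72% at the other spacings from 0 to 20 bp and 0.65% at 7 to 9 bp in reads outside regions. After WGATAR, at the same 7 to 9 bp, it was 0.50%, below the share before it. In all, 44 of the 362 regions (12.2%, exact binomial 95% interval 8.97 to 16.0) held such a pair. Among RefSeq promoter sequences of the same length as the window (GRCm38.p6) with WGATAR, themselves 21.5% of those searched, 2.01% held the pair. The promoters were searched over their full length. In the regions a median of 80.8% of the window was read, so pairs in unread bases were missed.

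CAGCTG, a palindromic E-box, made up 17 of the 44 pairs (38.6%), against 96 of all 405 E-boxes in the regions (23.7%). CAGATG or its reverse complement made up 12 pairs (27.3%), CAACTG 5, CAAGTG 4 and CACCTG 3. Read in the direction of WGATAR, 29 of the 44 E-boxes (65.9%, 50.1 to 79.5) ended in CTG, as in the CAGCTG pair at the Cbfa2t3 start printed above. Of these 29, 17 were CAGCTG, which ends in CTG on either strand, 7 CATCTG, 4 CAACTG and 1 CACCTG. Among the E-boxes that did not end in CTG, 5 read CAGATG and 2 CAGGTG in that direction. Whether 1 direction was favoured was not tested.

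CTG alone, without the CA of an E-box, stood at the same spacing in more regions than the whole E-box did. At 8 bp before WGATAR it was found at 73 of 396 readable sites (18.4%), against 2.41% in reads outside regions. At 7 bp it was found at 23 sites (5.68%) and at 9 bp at 27 (6.89%), and over the other spacings from 0 to 20 bp at 3.01% of positions. Regions with CTG at 7 to 9 bp and no pair numbered 105 of 362 (29.0%, 24.4 to 34.0), and regions with either numbered 149 (41.2%, 36.0 to 46.4). Among promoter sequences with WGATAR, again searched over their full length, 7.44% held CTG at 7 to 9 bp and no pair. Without the 66 regions of short strand distance or high background, 132 of 296 regions (44.6%) held a pair or CTG and 38 (12.8%) held a pair. High background means more than 3 times the genome average in the surrounding 10 kb, leaving out the 1 kb on either side of the summit.

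**Figure D3:**
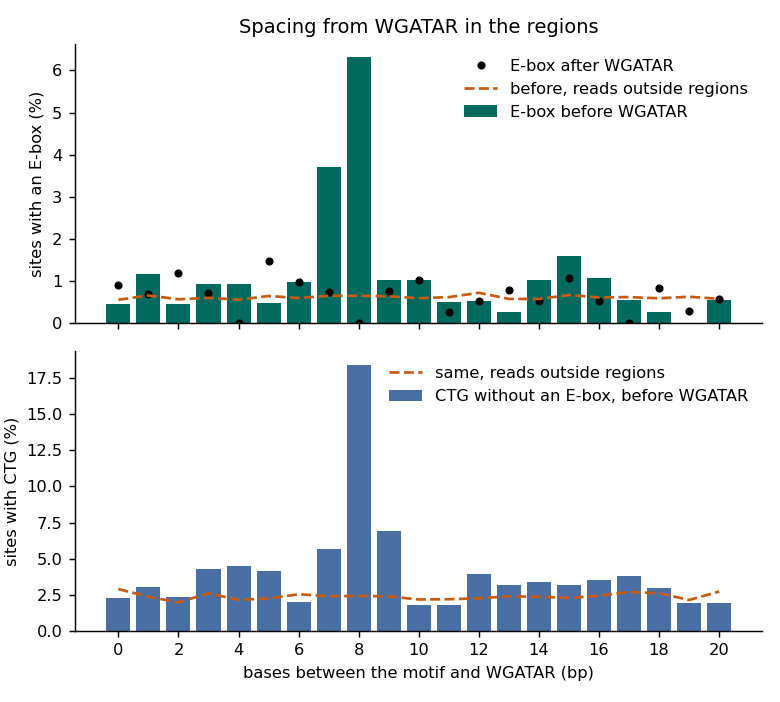
Percent of readable WGATAR sites (vertical axes) with an E-box (upper panel) or with CTG but no E-box (lower panel) at each number of bases from the motif to WGATAR (horizontal axis). Bars are motifs before WGATAR, points are E-boxes after it, and dashed lines are reads outside regions. Both panels peak at 8 bp, at 6.31% for the E-box and 18.4% for CTG.

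Regions with the pair had a median of 16 reads in the 400 bp around the summit, and those without it 13, with ranges of 8 to 62 and 8 to 100. Their median enrichments were 15.9-fold and 15.2-fold. More of the window was read in regions with the pair, with a median of 86.3% against 80.3%. In sample 1, 33 of 38 placed regions with the pair were called (86.8%, exact binomial 95% interval 71.9 to 95.6) and 196 of 268 without it (73.1%, 67.4 to 78.3). These intervals overlap, and the difference was not tested. A short strand distance was found in 1 of the 44 regions with the pair and in 46 of the 318 without it.

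Whether other motifs set these regions apart from those without a site was tested on regions with at least 90% of the window read, 114 with a site and 48 without. By two-sided Fisher's exact test with Benjamini-Hochberg adjustment over 8 motifs, none passed 0.05. Any E-box was present in 74.6% of regions with a site and 66.7% of those without (adjusted p = 0.344, Fisher's exact test). CAGCTG was present in 35.1% (26.4 to 44.6) and 16.7% (7.48 to 30.2), with an adjusted p of 0.159 by the exact test. CACCTG was present in 8.77% and 20.8%, also with an adjusted p of 0.159 by the exact test. MGGAAR, the core of ETS factor sites, was present in 68.4% and 77.1%, and TGYGGT, the core of RUNX sites, in 32.5% and 20.8%, both with an adjusted p of 0.344 by the exact test. With a minimum of 80% read, which was tried after these values had been seen, CAGCTG (30.9% against 13.2%, Fisher's exact test, adjusted p = 0.00561) and CACCTG (7.73% against 20.8%, adjusted p = 0.0064) passed. With a minimum of 70% read, CACCTG passed but CAGCTG did not (24.8% against 16.7%, Fisher's exact test, adjusted p = 0.0658). MGGAAR also passed at 70% (64.4% against 50%, Fisher's exact test, adjusted p = 0.00677), in the direction opposite to that at 90%. These calls thus changed with the coverage minimum.

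Sample 1 gave a readout of the regions from reads that had not chosen them, although from the same immunoprecipitation. Of the 769 regions that could be placed in sample 1 through read ends shared by both samples, 56.8% overlapped a region called there by the same rule. Among those with a site 229 of 306 were called (74.8%, exact binomial 95% interval 69.6 to 79.6), and among those without a site 208 of 463 (44.9%, 40.3 to 49.6). The median sample 1 enrichment was 12.1-fold and 5.38-fold. Regions with a site also had more sample 2 reads, with a median of 11.5 in the best window against 9, and more of the window read, with a median of 80.8% against 66.2%. At 8 or 9 reads the shares called in sample 1 were 41.4% (31.6 to 51.8) and 24.4% (19.4 to 30.1). At 10 to 14 reads they were 83.2% (74.4 to 89.9) and 67.3% (57.4 to 76.2), and at 15 or more reads 98.1% (93.4 to 99.8) and 78.5% (68.8 to 86.3). The share was higher with a site in each range of reads, but these ranges were set after the values had been seen. The intervals, which cover counting error only, overlapped at 10 to 14 reads. No test is given, since both samples are portions of 1 immunoprecipitation. Without regions of short strand distance or high background the shares were 76.4% and 41.6%. At placed regions with a site, read ends coinciding in both samples equalled 14.3% of the sample 2 reads within 300 bp of the summit. At those without a site they equalled 22.6%. Whether such ends came from the same fragments was not tested.

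**Figure D4:**
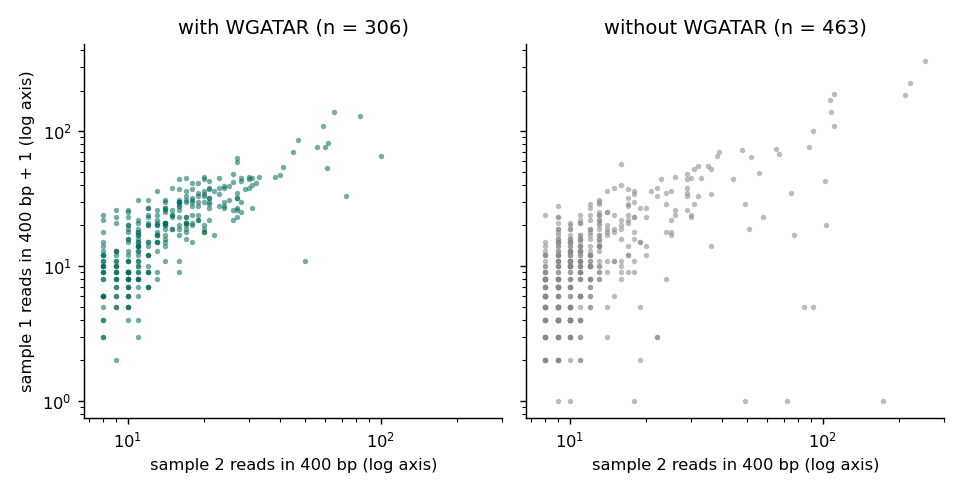
Distinct reads in the 400 bp around the summit in sample 2 (horizontal, log axis) and sample 1 plus 1 (vertical, log axis) for the placed regions, 306 with WGATAR and 463 without, 1 point per region. Points at the foot of the right panel are regions with no sample 1 read. In the left panel the region with 50 sample 2 reads and 10 sample 1 reads stands below those with similar sample 2 reads.

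The 12 regions with a site and the most reads, leaving out those of short strand distance or high background, held 31 to 60 reads in sample 2. Sample 1 could be read at 10 of them, and all 10 were called there, as were 98.1% of the placed regions with a site and at least 15 reads in the best window. On chromosome 17 the region with its summit at 29587008 held 60 sample 2 reads (exact Poisson 95% interval 45.8 to 77.2), 26 lane 7 reads and 56 lane 8 reads. The region at 75197461 on chromosome 8 held 56, 22 and 58 reads, with enrichments of 23.7-fold in sample 2 and 25.2-fold in sample 1. The region at 70393938 on chromosome 17 held 47, 29 and 56 reads. Lane 8 was above lane 7 at each of these, as in the library totals of 4255764 and 1683055 reads. On chromosome 3 the region at 100110314 held 50 sample 2 reads (37.1 to 65.9), but 3 in lane 7 and 7 in lane 8. It was still called in sample 1, at 12.5-fold.

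Genes were placed by matching reads to RefSeq promoter sequences, since no mm8 genome was used here. Starts of 10030 of 27025 genes (37.1%) were found in this way. A summit then lies in an interval between neighbouring matched starts, and the genes of that interval were read from the RefSeq gene order. Whether a site is exonic or intronic was not analysed here. The interval had equal length in mm8 and in GRCm38, the build of the RefSeq positions, for 695 regions of sample 2. Of these, 5.47% lay in one that held a gene of 5 lists of blood genes. With a site 28 of 287 did so (9.76%, exact binomial 95% interval 6.58 to 13.8), and without a site 10 of 408 (2.45%, 1.18 to 4.46). The intervals between starts had median lengths of 221 and 216 kb, so presence in an interval does not assign a region to the gene. The lists were chosen with earlier results of these data known, and several of the regions share a gene. These shares are therefore descriptive, and their difference was not tested. In 4 of the lists, 11 of 29 blood transcription factors, 2 of 10 Scl and GATA complex members, 6 of 16 progenitor receptors and surface genes and 0 of 6 mast cell genes were in an interval with such a region. In an interval with a region without a site the counts were 6, 1, 1 and 0. Of the 21900 protein-coding genes in the RefSeq table, 941 (4.3%) were in an interval of equal length with a region that held a site, and 1336 (6.1%) in one with a region that did not.

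Genes of the Scl family were among them. The summit at 87591755 on chromosome 8 lay 193 bp after the start of Lyl1, which encodes the closest relative of Scl. It held 65 reads in sample 2 (50.2 to 82.8), 55 in lane 7 and 102 in lane 8, the most of all regions near genes of the lists, and was enriched 22.1-fold in sample 2 and 22.2-fold in sample 1. Its background was 3.32 times the genome average, so its place by reads is not its place by enrichment. Among regions near list genes, those of Gfi1 (33.3-fold), Nfe2 (25.6-fold), Flt3 (25-fold) and Tal1 (22.9-fold) had higher sample 2 enrichments. Chromosome 8 held 51 of the 362 regions, the most of any chromosome. Whether reads were raised along the whole chromosome was not tested. The whole window of the Lyl1 region on the plus strand, where WGATAR reads as its reverse complement, shows both of its sites in capitals.
chr8:87591655-87591855: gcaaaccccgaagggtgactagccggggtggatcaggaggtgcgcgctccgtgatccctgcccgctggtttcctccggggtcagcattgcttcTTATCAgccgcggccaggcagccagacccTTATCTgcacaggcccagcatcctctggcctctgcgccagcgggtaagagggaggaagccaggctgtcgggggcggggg
The gene of Scl itself, Tal1, had a region 38100 bp from its matched start, with the summit at 114593843 on chromosome 4. It held 27 reads in sample 2, 24 in lane 7 and 42 in lane 8, and its WGATAR is preceded by CTG at 8 bp.

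Of the listed complex members, Cbfa2t3 and Zfpm1 had regions in their intervals, and the other 8 had none in the intervals of equal length. Cbfa2t3 encodes the corepressor Eto2, which is part of Scl complexes, and had 3 regions on chromosome 8, each with a pair of E-box and WGATAR. The one 20788 bp before a matched start held 62 reads in sample 2, 25 in lane 7 and 60 in lane 8. The one 126 bp before the start held 26, 14 and 36 reads, and the one 21468 bp before it 18, 14 and 24. The backgrounds of these 3 regions were 3.20, 4.69 and 3.09 times the genome average. Their sample 2 enrichments were 16.4-fold, 10-fold and 5.94-fold, the last close to the 5-fold minimum of the rule. The window of the strongest of them holds a second WGATAR and further E-boxes, all in capitals.
chr8:125605887-125606087: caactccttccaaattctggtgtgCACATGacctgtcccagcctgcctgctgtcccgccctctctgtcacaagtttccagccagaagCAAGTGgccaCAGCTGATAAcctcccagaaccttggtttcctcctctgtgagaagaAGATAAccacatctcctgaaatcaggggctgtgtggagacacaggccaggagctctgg
Zfpm1 encodes Fog1, a cofactor of GATA factors. Intervals that hold it had 3 regions, with 31, 24 and 14 reads in sample 2 and backgrounds of 2.86, 3.66 and 2.92 times the genome average. The last of them had a strand distance of -14.5 bp. Gata2 encodes a GATA factor of blood progenitors, and the region in its interval, 76910 bp from its matched start, held 19 reads in sample 2, 12 in lane 7 and 21 in lane 8.

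Repressors and other transcription factors of blood cells followed. Gfi1 encodes a zinc finger repressor, and the region nearest to it, 34971 bp before its start, held 41 reads in sample 2, 12 in lane 7 and 45 in lane 8, with enrichments of 33.3-fold and 31.0-fold. Its interval differed in length between mm8 and GRCm38, so it is not among those counted by interval. Gfi1b, the related repressor of the erythroid and platelet lineages, had 2 regions in its interval with 17 and 13 reads in sample 2, and the latter held a pair with CAACTG at 7 bp. Erg, an ETS factor of blood stem cells, had a region 19976 bp after its start with 15 reads in sample 2, 4 in lane 7 and 19 in lane 8. In the intervals of Myb, Meis1 and Nfe2 the regions held 28, 14 and 21 reads in sample 2. In that of Cebpe, a factor of granulocytes, 2 regions held 28 and 17 reads. Ikzf1 and Ikzf2 had 1 region each, with 10 and 8 reads, close to the minimum of the rule.

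Receptors and other genes of the cell surface also had regions. Itga2b encodes the integrin CD41, an early marker of blood progenitors and of megakaryocytes, and its region lay 321 bp before the start. It held 17 reads in sample 2 (9.90 to 27.2), 19 in lane 7 and 29 in lane 8. Csf2rb2 encodes a receptor subunit for interleukin-3, and its region, 37651 bp from the start, held 20 reads in sample 2, 14 in lane 7 and 32 in lane 8, with 4 WGATAR sites in the window. The intervals of Flt3, Emcn and Cd9 held regions with up to 30, 20 and 17 reads. Kit, the receptor for stem cell factor, had a region 114350 bp before its start with 10 reads in sample 2, but 1 in lane 7 and 6 in lane 8, and this region was not called in sample 1. Of the 28 regions near list genes reported here, 26 were called in sample 1, against 74.8% of all placed regions with a site. A pair was held by 5 of the 28, against 12.2% of all regions with a site. These 5 included all the Cbfa2t3 regions. Those not called were the Kit region and a second region in an interval of Lyl1, with 10 reads in sample 2 and 5 in sample 1.

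**Figure D5:**
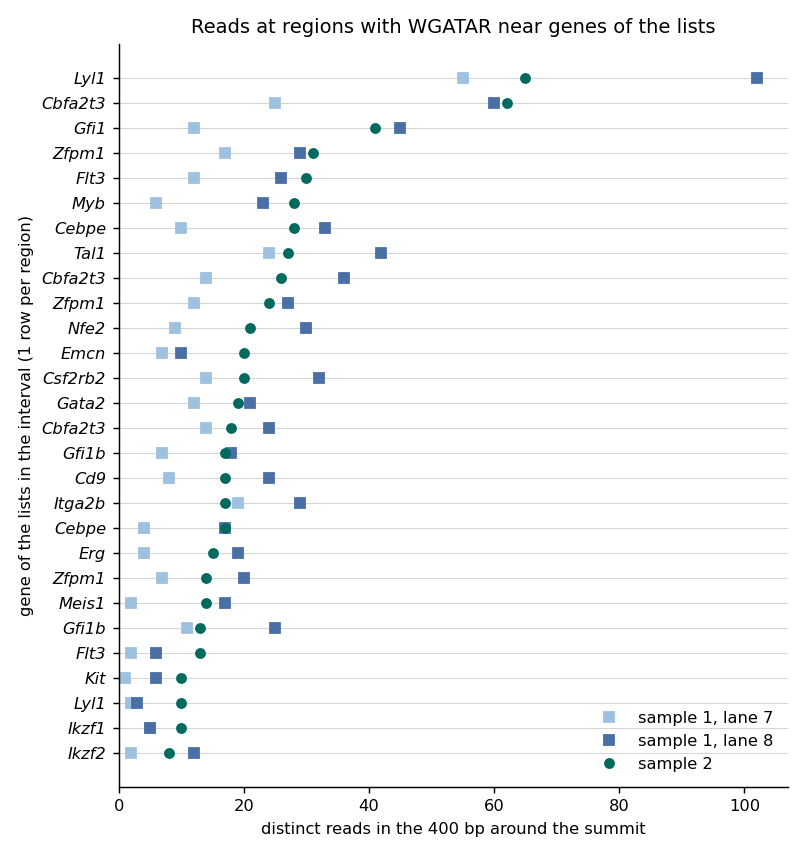
Distinct reads in the 400 bp around the summit (horizontal axis) in lane 7, lane 8 and sample 2 for the 28 regions with WGATAR near the genes of the lists reported here, 1 row per region with the gene of its interval or nearest start (vertical axis), ordered by sample 2 reads. The Lyl1 and Cbfa2t3 regions at the top hold 65 and 62 sample 2 reads, and the Ikzf2 region at the foot holds 8.

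Some regions with many reads lacked the layout of fragments around a site. The region with the most reads, on chromosome 12 with its summit at 75723095, held 100 reads in sample 2 and 65 in sample 1, and its strand distance was 57.5 bp. Another on chromosome 12, at 67977974, held 73 and 32 reads with a strand distance of 22 bp. In all, 66 of the 362 regions (18.2%) had a short strand distance or a high background. Of these 66, 47 had a short strand distance. The others had a high background only, among them the Lyl1 region, whose strand distance was 127.5 bp. The part of the 66 in the results was not tested beyond the values given without them. At the read minimum, 71 of 290 regions with 8 reads in the best window held WGATAR, and 159 of 904 with 7 reads, which the rule left out.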

How the data were processed

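The authors deposited aligned reads. Per the labels, Solexa software placed the reads of sample 1 and Eland those of sample 2, and the deposited text gives builds mm9 and mm8. The deposited sample 1 file holds a score per read, and the deposited sample 2 file holds read sequences and the count of genome matches. Software versions were not given in the sources used here. Reads with the same chromosome, strand and 5′ end were counted once and moved 69 bp to the fragment centre, and the region rule was applied with an effective genome of 1.9e9 bp. The consensus took the majority base, and against RefSeq promoters 26 of 2530 bases differed. Coordinates were not converted. Sample 1 was read where at least 4 read ends within 50 kb of a region coincided at 1 offset (exact Poisson p of at most 1e-04, 1.5 times the next best), leaving out 500 bp each side of the summit. Intervals are exact at the 95% level, and Fisher's exact test was run with scipy 1.17.1 under Python 3.11.15. Scripts were tested on simulated data.

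Members and lists were chosen with earlier results of these data known. Named were the 12 regions with the most reads among those with a strand distance of at least 69 bp and a background of at most 3 times the average, up to 10 with the pair and the most reads, and those near genes of the lists, and the text gives a selection of these. The regions on chromosome 12 and the printed selection were chosen after their values were seen. So were the search for CTG and its range of 7 to 9 bp, which was first 7 to 8 bp, the ranges of reads for sample 1, the placing of genes through promoters and by interval, and the 80% and 70% coverage minima. CAGATG and CATCTG are reverse complements, so 7 of the 8 motifs tested are distinct. The 14 regions on chromosome 18 were counted and are not named, and 1 gene of the lists is counted by interval but not reported here.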

Additional observations from a re-analysis of the deposited data

How the results depend on the processing

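Changing 1 setting at a time, 62 of 78 recomputed values were close to the reported ones. For counts of regions this means within 1.5 times, for medians within the 95% interval of the reported median, and for tested differences the same direction and the same side of the threshold. With at least 12 reads, 181 regions had a site, 28 held the pair, the median sample 1 enrichment was 15.8-fold and the median distance of the nearest site 19.5 bp. Counting motifs within 50 bp, which leaves out sites farther away, brought that distance to 17.5 bp. With the whole window read, 3 of the 13 remaining regions with a site held the pair. Why the medians moved with at least 12 reads was not tested. The difference in the share with any E-box, 7.89 percentage points in the reported comparison, was -5.87 without regions of short strand distance. That of MGGAAR, -8.66 in the reported comparison, was 8.33 within 50 bp, 3.696 with a 50 kb background, and 10.2 and 14.4 with 80% and 70% of bases read, the last with an adjusted p of 0.00677 by Fisher's exact test. That of CACCTG was 15.4 with all bases read, and the cause of these changes of sign was not tested either. CACCTG also passed with 70% read (adjusted p = 0.0121, Fisher's exact test) and without regions of short strand distance, where the difference was -21.9. No paired analysis was possible because both samples are portions of 1 immunoprecipitation in 1 group, and leaving out a replicate was not possible because the regions come from 1 sample. Depth limits the sequence comparisons, since 114 of 362 regions with a site and 48 of 597 without had 90% of their bases read.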
